A study of Homo sapiens with 15 samples.

Results

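The genes described are 6 mucins (MUC1, MUC4, MUC13, MUC15, MUC16 and MUC20) and 4 keratins (KRT7, KRT8, KRT18 and KRT19), 10 of the 20007 protein-coding genes of GENCODE v44. They were listed by name, with earlier results of these data known, and MUC1 was also chosen by its peak cover, which was lower in SETD2 knockout (KO) than in wild-type (WT) cells and was not regained in the rescue cells. The values of MUC1 are therefore given as a description, without a test. Each gene was read as its gene body plus 10 kb on each side. Peaks of the 15 libraries were merged where they shared 1 bp or more, which gave 86 distinct regions in the windows of these genes, of 367949 regions in all. Of the 86 regions, 71 held a peak in 2 or more libraries, against 295008 such regions genome-wide.

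Transmembrane mucins are heavily O-glycosylated proteins of the apical surface, where they form part of the glycocalyx and of the barrier facing the lumen. Keratins 8 and 18 pair as the intermediate filaments of simple epithelia, and keratins 7 and 19 are added in ductal and other simple epithelia. In the kidney, MUC1 marks mainly distal tubule and collecting duct, and the loss of such epithelial genes is one feature by which epithelial to mesenchymal transition is recognized.

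The study asked how loss of SETD2, the methyltransferase that trimethylates lysine 36 of histone H3, altered open chromatin. All libraries came from RPTEC, an hTERT-immortalized line of epithelial cells from the human proximal tubule, grown under G418. WT is the uncloned parental line. KO1 and KO2 are single-cell clones with frameshifts from a CRISPR/Cas9 guide against exon 3 of SETD2, and Rescue1 and Rescue2 are single clones of KO cells that carry a lentiviral, FLAG-tagged full-length human SETD2 selected with blasticidin. The clone names used in the study place both rescue clones under KO2. Each group had 3 libraries, and libraries of 1 clone are not separate clones, so p-values measure the spread between libraries. WT also differs from every other group in not having been cloned, and in the comparison of KO with WT this cannot be told apart from SETD2 status. The frameshifts cannot be read from peak positions, so the labels were not checked at SETD2 itself.

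The peak lists held 196969 to 265193 peaks on the main chromosomes, covering 49.4 to 65.2 Mb, and read depth was not analysed here. Of 14 markers of kidney tubule epithelium, 9 had a promoter peak in all WT libraries, among them PAX8, PAX2, CDH1, EPCAM, the cadherin CDH6 and GGT1, a brush-border enzyme of the proximal tubule. CUBN and LRP2, the endocytic receptors of the proximal tubule, SLC34A1, AQP1 and LHX1 had none in any WT library. None of 4 blood markers and none of 3 endothelial markers had a promoter peak in all WT libraries, and 1 of 4 fibroblast markers, LUM, did. In such bulk libraries, fewer cells with an open site and less access per cell cannot be told apart.

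MUC1 (chr1:155185824-155192916, minus strand, hg38) encodes the best-studied transmembrane mucin, whose cytoplasmic tail takes part in signalling. In its window, peaks covered 2149, 1939 and 1981 bases in WT, 1211, 1180 and 1378 in KO1, and 1117, 1319 and 1523 in KO2. Rescue1 had 1380, 1341 and 1445 bases, and Rescue2 had 1660, 1548 and 1319. All 6 KO and all 6 rescue libraries lay below all 3 WT libraries, while KO and rescue libraries overlapped. The mean was 2023 ± 111 bases over the 3 WT libraries, 1288 ± 149 over the 6 KO libraries and 1449 ± 132 over the 6 rescue libraries (± SD). In descending order the group means ran WT, Rescue2 (1509 ± 174), Rescue1 (1389 ± 52.5), KO2 (1320 ± 203) and KO1 (1256 ± 106.5, SD, n = 3 each), and each pair of neighbours after WT overlapped.

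The MUC1 window held 6 merged regions. Both upstream regions and the region MUC1-6, 16119 bases past the canonical start and within TRIM46, carried a peak in all 15 libraries. Most of the lower cover came from 2 places. The intronic region MUC1-4 had a peak in all 3 WT libraries (356, 290 and 203 bases) and in none of the other 12. The promoter region MUC1-2, centred 596 bases upstream of the canonical start, kept a peak in every library but had fewer bases under peaks. It had 699, 841 and 843 bases in WT against 433 to 536 in KO and 506 to 663 in rescue. The end of its peaks nearest the start lay at -281, -175 and -115 bases from the start in WT, between -501 and -455 in KO and between -469 and -386 in rescue. In WT replicate 3 the cover was split into separate calls, from -1078 to -370 and from -248 to -115, so the larger call ended at -370.

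These regions contributed -283 bases (MUC1-4) and -310 bases (MUC1-2) to the mean KO minus WT difference of -735 bases. The strength of the promoter peak did not follow its width. Peak strength is given as the percentile rank of the strongest peak by -log10 p within its own library, with 100 the strongest and 0 for no peak. The rank of MUC1-2 was 76.9, 77.2 and 80.9 in WT, 78.2 to 88.8 in KO and 75.2 to 82.4 in rescue, so the groups overlapped. MUC1 has a peak within 500 bp of its canonical start in 14 libraries. In KO1 replicate 2 the peak of MUC1-2 began outside that distance, which made its promoter rank 0 although the region was occupied.

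The MUC1 sequences are shown because peaks over them were called in WT libraries alone, in all 3 at MUC1-4 and in replicates 2 and 3 over part of the bases just before the start. MUC1-4 lies in an intron of the canonical transcript, within the overlapping coding gene ENSG00000273088, and its middle 300 bases (chr1:155186407-155186706) are printed with the 250 bases before the start of MUC1 (chr1:155192916-155193165), both from hg38 on the minus strand. Capitals mark short motifs found on either strand, among TGANTCA (AP-1), GGAATG (TEAD), AACCNGGTT (GRHL), CAGGTG (E-box), GGGCGGG (KLF/SP), TGTGGT (RUNX) and TGTTTAC (FOX).
MUC1-4: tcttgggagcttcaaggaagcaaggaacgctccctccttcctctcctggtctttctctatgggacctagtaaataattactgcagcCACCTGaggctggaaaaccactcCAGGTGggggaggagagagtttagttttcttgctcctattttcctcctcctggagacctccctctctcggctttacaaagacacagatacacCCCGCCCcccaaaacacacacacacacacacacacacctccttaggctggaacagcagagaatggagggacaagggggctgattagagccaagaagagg
MUC1 upstream: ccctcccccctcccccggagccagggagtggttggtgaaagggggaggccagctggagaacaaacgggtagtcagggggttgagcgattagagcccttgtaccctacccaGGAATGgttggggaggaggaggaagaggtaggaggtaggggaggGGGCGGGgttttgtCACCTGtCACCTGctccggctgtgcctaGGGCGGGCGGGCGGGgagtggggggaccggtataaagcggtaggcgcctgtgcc

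MUC1-4 held 2 E-box motifs and 1 KLF/SP motif, and the upstream bases held 1 TEAD, 2 E-box and 4 KLF/SP motifs, of which some overlapped each other. Among 300-base windows centred on the 295008 regions, 22.9% held the E-box letters, 6.08% the KLF/SP letters and 20.9% the TEAD letters. The upstream stretch of 250 bases is shorter than those windows and had 66% GC, against a median of 46.3% over all windows. The shares are therefore not matched to it, and a match is a description of letters only.

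**Figure D1:**
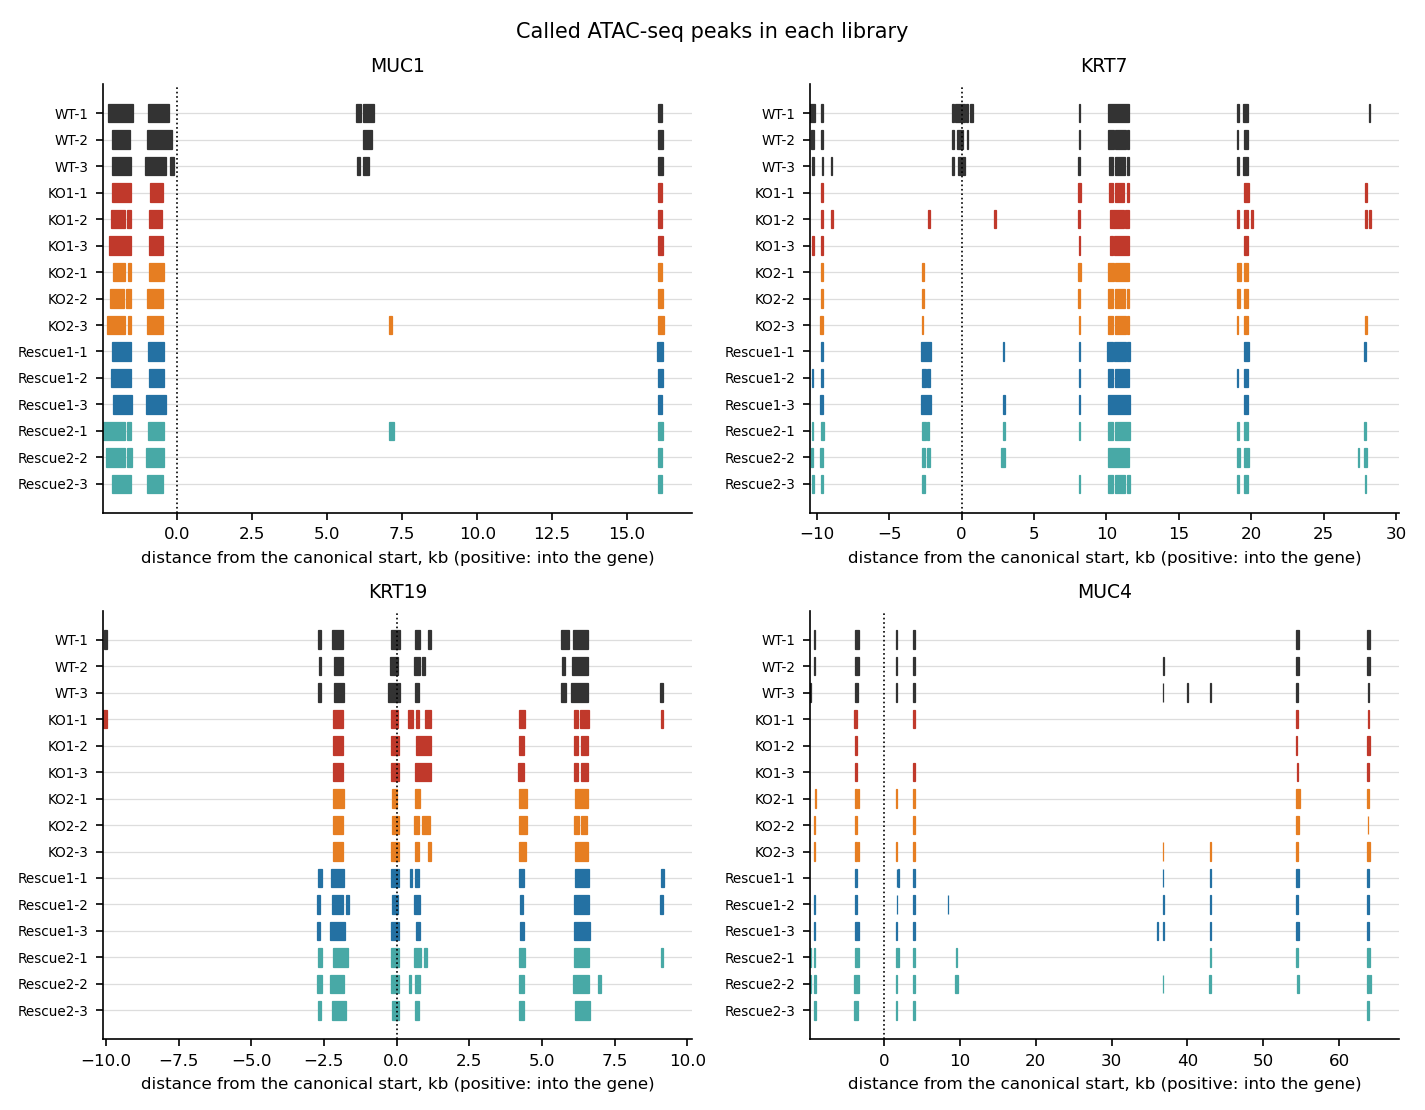
Peaks called in each of the 15 libraries (rows, coloured by group) over the windows of MUC1, KRT7, KRT19 and MUC4, by distance in kb from the canonical start (dotted line). In MUC1 the peaks near 6 kb are in WT rows, and in KRT7 the peaks over the start are in the 3 WT rows alone.

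The other mucins had their own patterns. MUC4 (chr3:195746765-195811973, minus strand), a large membrane mucin that binds the receptor ERBB2, had 1985, 1791 and 1708 bases under peaks in WT. KO1 had 932, 790 and 958 bases and KO2 had 1580, 1139 and 1681, all below WT. Rescue1 had 1556, 1648 and 2017 and Rescue2 had 2600, 2478 and 1370, spanning the WT values. KO was lower than WT by 648 bases on average (exact permutation p = 0.0238, two-sided, adjusted over all genes 0.0998), and rescue was higher than KO by 765 bases (exact permutation p = 0.0195, adjusted 0.0671).

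The 2 KO clones differed at MUC4. Every KO1 library was below every KO2 library, and the mean was 893 ± 90.4 bases in KO1 and 1467 ± 288 in KO2 (SD, n = 3 each). Against KO2 alone the rescue difference at MUC4 was 478 bases (exact permutation p = 0.214), and against both KO clones it was 560 with Rescue1 alone (exact permutation p = 0.119) and 969 with Rescue2 alone (exact permutation p = 0.0714). The intronic region MUC4-4 had a peak in all WT, 2 of 3 KO2 and all 6 rescue libraries and in no KO1 library. MUC4-3, centred 3631 bases upstream of the start, was occupied in all 15 libraries. Its rank was 87.3, 86.0 and 95.7 in WT, 42.5, 53.3 and 48.7 in KO1, 70.8, 77.0 and 83.1 in KO2, and 82.7 to 89.7 in rescue. The rank fell by 27.1 from WT to KO (exact permutation p = 0.0238, adjusted over all shared regions 0.112) and was 22.7 higher in rescue than in KO (exact permutation p = 0.00649, adjusted 0.0488), or 8.27 higher than in KO2 alone (exact permutation p = 0.0714).

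MUC16 (chr19:8848844-9010390, minus strand), the mucin that carries the CA125 antigen, had few peaks. Its cover was 383, 449 and 596 bases in WT, 262, 269 and 350 in KO1, 427, 287 and 485 in KO2, 228, 210 and 331 in Rescue1, and 301, 250 and 324 in Rescue2. The groups overlapped in KO against WT (exact permutation p = 0.143) and in rescue against KO (exact permutation p = 0.130). An exonic region, MUC16-5, showed the larger difference of the gene. Its rank was 89.6, 86.8 and 87.8 in WT, 8.77 to 57.4 in KO and 49.7 to 77.0 in rescue. KO was lower by 50.1 (exact permutation p = 0.0238, adjusted 0.112) and rescue higher than KO by 26.2 (exact permutation p = 0.00866, adjusted 0.0573), or than KO2 alone by 15.7 (exact permutation p = 0.0952).

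Within the gene body of MUC16, without flanks, KO cover was lower than WT by 226 bases (exact permutation p = 0.0238). The flank held MUC16-1, 34907 bases upstream of the canonical start, with a peak in 1 WT library, all 6 KO libraries and no rescue library.

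MUC20 (chr3:195720884-195741123, plus strand), a mucin reported to bind the receptor MET, lies beside MUC4 and shares 1 region with its window. It had 973, 814 and 795 bases under peaks in WT, 594, 793 and 582 in KO1, 710, 556 and 813 in KO2, and 613 to 944 in rescue. Means were 861 ± 97.7 (SD, n = 3) in WT and 675 ± 113 (n = 6) in KO (exact permutation p = 0.0476), with KO2 replicate 3 inside the WT range, and rescue against KO gave exact permutation p = 0.195. Leaving out any 1 KO library other than that one gave exact permutation p = 0.0714 for KO against WT. The upstream region MUC20-2 had a mean rank of 50.9 in KO and 67.9 in rescue (exact permutation p = 0.00649, adjusted 0.0488). The KO mean was 44.4 ± 12.5 in KO1 and 57.5 ± 12.2 in KO2 (SD, n = 3 each). Against KO2 alone the rescue difference of MUC20-2 was 10.5 (exact permutation p = 0.0714), with 2 KO2 libraries inside the rescue range.

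MUC13 (chr3:124905442-124953819, minus strand), an epithelial mucin with EGF-like domains, had 985, 758 and 479 bases in WT, 622 to 965 in KO1, 769 to 1447 in KO2, 1007 to 1166 in Rescue1 and 1178 to 1470 in Rescue2. Neither KO against WT (exact permutation p = 0.476) nor rescue against KO (exact permutation p = 0.0801) passed the 0.05 threshold. Without KO2 replicate 3 the rescue difference was 393 bases (exact permutation p = 0.0130). All 6 rescue libraries were above the highest WT library. MUC13-6, an intronic region 8091 bases into the gene, had a peak in no WT library, all 6 KO libraries, all Rescue1 libraries and 1 Rescue2 library. The percentile rank of MUC13-6 was only 2.67 to 28.5 in KO. MUC15 (chr11:26559032-26572263, minus strand) had no peak in its window in any of the 15 libraries.

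KRT7 (chr12:52232520-52252186, plus strand) had 3752, 2748 and 2553 bases under peaks in WT, 1960, 2520 and 1885 in KO1, and 2317, 2116 and 2237 in KO2. Rescue1 had 2802, 2671 and 2933, and Rescue2 had 2943, 3375 and 2332. KO lay below WT in every library (mean difference -845 bases, exact permutation p = 0.0238, adjusted 0.0998), and rescue was 670 bases above KO (exact permutation p = 0.00433, adjusted 0.0257).

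The peak over the KRT7 start itself did not return with the total cover. Region KRT7-6, which spans the canonical start and part of exon 1, had 651, 417 and 407 bases under peaks in WT, at ranks of 56.9, 60.1 and 62.2. It had no peak in any of the 6 KO or 6 rescue libraries. The neighbouring KRT7-5, centred 593 bases upstream, likewise had a peak in the 3 WT libraries alone.

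The bases regained in rescue lay elsewhere in the window. KRT7-4, centred 2438 bases upstream of the start, had no peak in WT, a peak of 136 bases in 1 KO1 library, peaks of 103 to 130 bases in the 3 KO2 libraries, and 237 to 673 bases in all 6 rescue libraries. KRT7-2, centred 9641 bases upstream, ranked 38.3, 30.5 and 13.9 in WT and 54.9 to 77.7 in KO, a rise of 39.1 (exact permutation p = 0.0238, adjusted 0.112). The intronic region KRT7-12 ranked between 86.8 and 98.1 in every library. It was outranked in KO1 replicate 3 and KO2 replicate 3 by KRT7-14, past the end of the gene and within KRT86, which ranked 95.5 and 89.9 there.

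KRT8 (chr12:52897187-52949954, minus strand) and KRT18 (chr12:52948871-52952906, plus strand) overlap in the annotation. Their windows shared 5 regions, so their totals are not separate measurements. Among these, KRT8-4 is the same region as KRT18-2. It lies in the annotated KRT8 body, 40826 bases upstream of the KRT8 canonical start and 3216 bases upstream of that of KRT18. It had 481, 453 and 385 bases under peaks in WT and 0 to 139 in KO, and counts in the KRT8 difference with and without flanks. KRT8 had 5361, 4587 and 4374 bases in WT, 4266, 4000 and 4192 in KO1, 4309, 3568 and 4432 in KO2, 4359, 4452 and 4646 in Rescue1, and 4884, 4561 and 4108 in Rescue2. KO was lower than WT by 646 bases, with 1 KO2 library inside the WT range (exact permutation p = 0.0476), and rescue exceeded KO by 374 bases (exact permutation p = 0.0411, adjusted 0.113). Leaving out any 1 KO library other than KO2 replicate 3 gave exact permutation p = 0.0714 for KO against WT. Leaving out 1 library of Rescue1 replicates 2 and 3, Rescue2 replicates 1 and 2, the KO1 replicates and KO2 replicate 2 gave exact permutation p values of 0.0519 to 0.0823 for rescue against KO.

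The KRT8 promoter region KRT8-13 ranked 77.2, 81.9 and 86.2 in WT, 70.2, 79.1 and 72.6 in KO1, 74.2, 64.6 and 71.1 in KO2, 82.1, 77.5 and 79.2 in Rescue1, and 83.6, 79.2 and 79.3 in Rescue2. KO was lower by 9.79 (exact permutation p = 0.0476, and 0.0714 when any 1 KO library other than KO1 replicate 2 was left out) and rescue was higher than KO by 8.19 (exact permutation p = 0.00433, adjusted over all promoters 0.0481). Its width behaved differently: it covered 473 to 549 bases in WT, 336 to 376 in KO and 340 to 438 in rescue.

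At the downstream region KRT8-20, rank fell from 81.5, 67.4 and 75.0 in WT to 42.6 to 57.0 in KO and was 71.1 to 79.5 in rescue. KO was lower by 22.4 (exact permutation p = 0.0238, adjusted 0.112), and every rescue library was above every KO library (difference 23.3, exact permutation p = 0.00216, the smallest possible, adjusted 0.0281). KRT8-11, centred 3036 bases upstream of the canonical start, went the other way in KO and ranked 64.0 to 68.0 in WT, 73.1 to 83.6 in KO and 78.3 to 84.6 in rescue. KRT8-19, next to KRT8-20, had a peak in WT libraries alone, at ranks of 10.5, 6.63 and 35.1.

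KRT18 had 1558, 1344 and 1304 bases in WT, 1061, 1077 and 1229 in KO1, 1069, 725 and 1442 in KO2, 1561, 1407 and 1463 in Rescue1, and 1585, 1518 and 1443 in Rescue2. KO against WT gave a difference of -302 bases (exact permutation p = 0.0952), or -370 without KO2 replicate 3 (exact permutation p = 0.0357), and rescue exceeded KO by 396 bases (exact permutation p = 0.00433, adjusted 0.0257). Without flanks the KRT18 values were 24.3 bases above WT in KO (exact permutation p = 0.786) and 50.7 bases above KO in rescue (exact permutation p = 0.392), so the differences of the window came from the flanks.

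In the flank, KRT18-5, 8077 bases past the start, had a peak in no WT library, 1 of 6 KO libraries and all 6 rescue libraries. KRT18-2, upstream within KRT8, covered 481, 453 and 385 bases in WT, 0 to 139 in KO and 83 to 268 in rescue. The peak over the KRT18 start, KRT18-3, ranked 71.6 to 79.9 in WT, 52.2 to 74.6 in KO and 53.7 to 69.4 in rescue, and rescue against KO differed by 0.84 (exact permutation p = 0.855).

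KRT19 (chr17:41523617-41528308, minus strand) encodes a keratin with almost no tail domain. It had 1912, 1590 and 1851 bases in WT, 1723, 1678 and 1749 in KO1, 1471, 1647 and 1556 in KO2, and 1652 to 2061 in rescue. The window totals overlapped between KO and WT (exact permutation p = 0.143) and between rescue and KO (exact permutation p = 0.0693, and 0.0476 without Rescue2 replicate 3). Within the gene body alone the direction was the opposite, with KO above WT by 361 bases (exact permutation p = 0.0238) and a rescue minus KO difference of -241 bases (exact permutation p = 0.0130).

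The window of KRT19 held regions that moved in each direction. KRT19-7, in an exon 4338 bases from the start, had no peak in WT and 162 to 277 bases in KO, and it remained in all 6 rescue libraries at 105 to 212 bases. KRT19-2, centred 2641 bases upstream, had peaks of 122, 78 and 78 bases in WT, none in KO, and 91 to 162 bases in all 6 rescue libraries. Some of these peaks were weak calls: KRT19-2 ranked 38.2, 2.14 and 12.4 in WT and 8.27 to 47.3 in rescue. KRT19-7 ranked 42.2 to 66.1 in KO. KRT19-8, in the neighbouring KRT15, had a peak in the WT libraries alone, at ranks of 38.3, 1.55 and 21.4.

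The peak over the KRT19 start, KRT19-4, ranked 60.5, 68.3 and 68.6 in WT, 37.0, 63.0 and 52.7 in KO1, 36.2, 24.4 and 27.6 in KO2, 28.7, 33.0 and 36.6 in Rescue1, and 29.9, 37.4 and 43.7 in Rescue2. KO was lower by 25.7, with KO1 replicate 2 inside the WT range (exact permutation p = 0.0476, and 0.0714 when any 1 other KO library was left out), and rescue against KO gave a difference of -5.23 (exact permutation p = 0.463). All 6 rescue libraries stayed below WT.

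KRT19-2 and KRT19-7 are printed with MUC13-6, because the first is the only region of the 71 that was lost in KO and present in all rescue libraries, and the others are the 2 regions gained in KO. They lie at chr17:41530799-41531098, chr17:41523820-41524119 and chr3:124926511-124926810, all read on the minus strand of hg38, with capitals as above.
KRT19-2: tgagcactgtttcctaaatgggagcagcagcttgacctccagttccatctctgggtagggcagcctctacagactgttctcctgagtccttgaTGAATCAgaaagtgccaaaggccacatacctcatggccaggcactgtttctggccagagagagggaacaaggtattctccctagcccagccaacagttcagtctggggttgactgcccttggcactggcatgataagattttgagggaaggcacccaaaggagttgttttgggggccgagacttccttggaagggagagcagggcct
KRT19-7: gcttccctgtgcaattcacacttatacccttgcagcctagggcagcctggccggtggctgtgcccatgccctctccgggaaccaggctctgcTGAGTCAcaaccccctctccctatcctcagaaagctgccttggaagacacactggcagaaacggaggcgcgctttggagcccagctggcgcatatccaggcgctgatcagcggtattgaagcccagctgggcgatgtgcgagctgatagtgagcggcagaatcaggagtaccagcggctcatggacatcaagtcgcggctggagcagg
MUC13-6: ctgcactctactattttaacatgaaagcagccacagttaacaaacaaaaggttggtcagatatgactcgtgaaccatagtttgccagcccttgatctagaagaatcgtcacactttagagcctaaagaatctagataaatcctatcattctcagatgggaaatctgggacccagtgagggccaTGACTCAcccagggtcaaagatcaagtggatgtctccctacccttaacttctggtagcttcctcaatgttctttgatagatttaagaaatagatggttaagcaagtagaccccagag

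Each of these 3 windows held 1 AP-1 motif, which was found in 31.7% of the 295008 windows. Among the 6 member regions lost in KO, 1 held that motif and 2 held RUNX letters, a motif found in 26.5% of all windows.

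Counted over the members without MUC1, 4 of 8 genes with peaks (MUC4, MUC20, KRT7 and KRT8) had lower cover in KO than in WT at an exact permutation p under 0.05, against 15.3% of 19421 genes tested. None of the 8 was higher, against 15.9% of all genes. KO libraries were all below WT for MUC4 and KRT7, a pattern seen in 11.3% of genes. The genes under 0.05 depended on the setting. Without flanks, exact permutation p was 0.119 for MUC4 and 0.667 for MUC20. At −log10 q of 5 or more it was 0.167 for MUC4, and in equal lists of 150000 peaks 0.0714 for KRT7. KRT8 stayed under 0.05 in these settings, and with 5 kb flanks MUC4, MUC20, KRT7 and KRT8 all did. Without flanks, MUC16 and KRT7 were also lower in KO and KRT19 was higher by 361 bases, each at an exact permutation p under 0.05. The region shared by MUC4 and MUC20 gave -109 bases of the MUC20 difference of -186, so their totals are not separate measurements. With 3 WT and 6 KO libraries the smallest exact permutation p is 0.0238 and the smallest adjusted p was 0.0998, so no gene could be called after adjustment.

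Between rescue and KO, 4 of 8 (MUC4, KRT7, KRT8 and KRT18) were higher at an exact permutation p under 0.05, where 31.4% of all genes were, and none was lower, where 7.33% were. The regions KRT18-1 to KRT18-5 all lie in the KRT8 window too, so the KRT8 and KRT18 calls are not separate measurements. KRT18-5 alone, with 144 to 265 bases in the rescue libraries and at most 75 in a KO library, counts in both. After adjustment KRT7 and KRT18 passed, against 19.3% of all genes. The median difference over all genes was 133 bases in rescue against KO and -10.5 bases in KO against WT, so a gain of cover in rescue was common genome-wide.

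**Figure D2:**
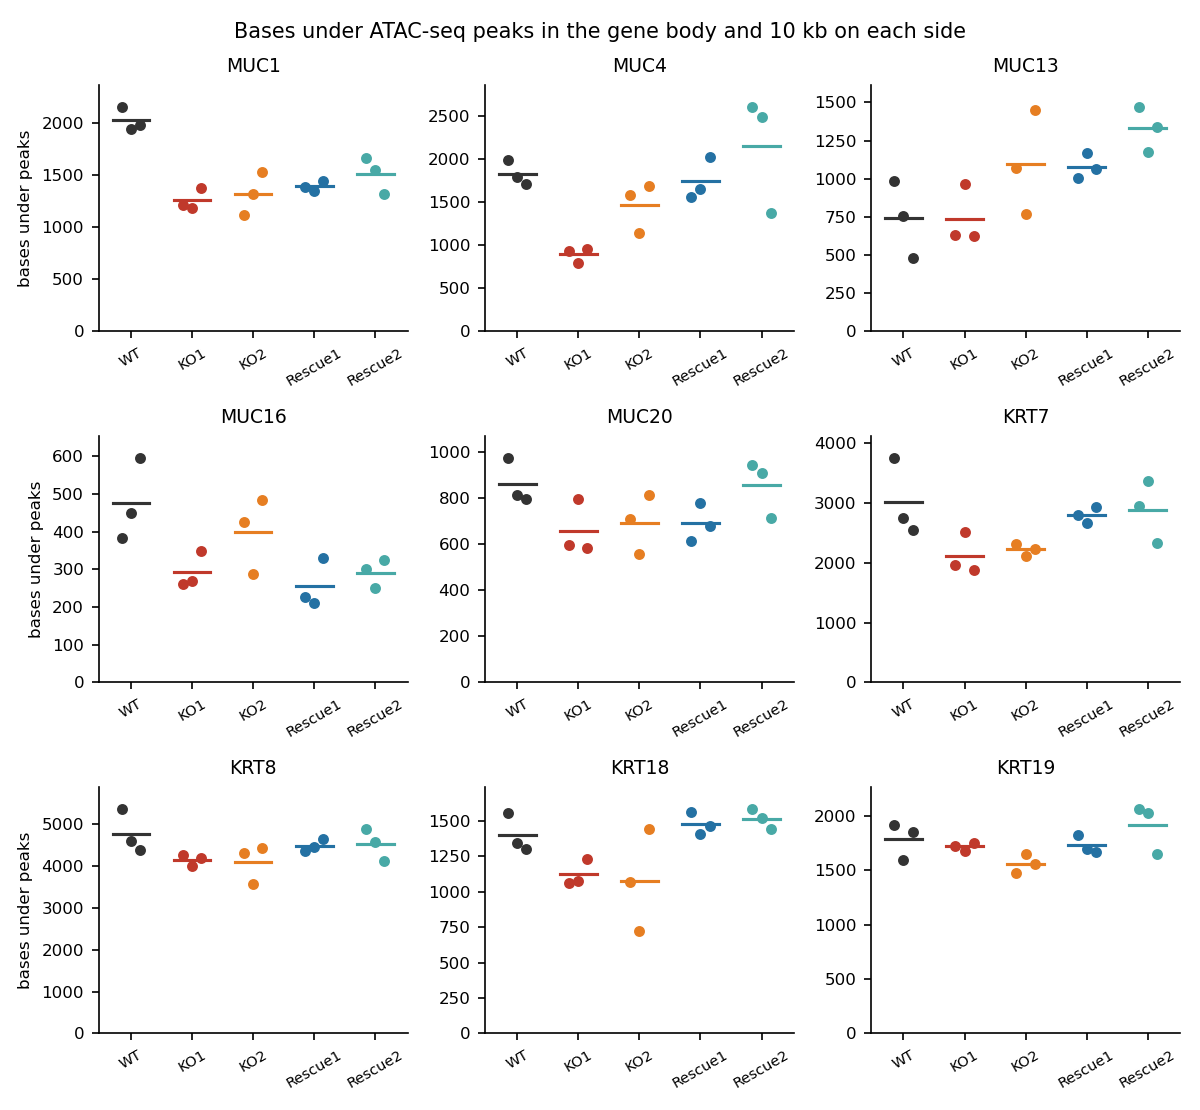
Bases under peaks in the gene body and 10 kb on each side for the 9 members with peaks, 1 point per library and a line at each group mean. MUC1 points of KO and rescue lie below 1939, the lowest WT value, while MUC4 and KRT7 rescue points reach the WT range.

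Promoter peaks within 500 bp of the canonical start were found for MUC1 and the 4 keratins, and for no other member in any library. Among 15351 promoters tested, 8.87% were lower in rank in KO than in WT at an exact permutation p under 0.05, as were KRT8 and KRT19. KRT18 was not, and none of these was higher, against 5.99%. KRT7 is left out of this count because its promoter peak was found in the 3 WT libraries alone, so that its difference was fixed by the peak that let it into the test. KRT8 and KRT18 were higher in rescue than in KO, against 5.11% of promoters, and none was lower, against 23.8%.

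After adjustment KRT8 alone passed, against 1.84% of promoters. The KRT18 call rested on whether the peak of KRT18-4, a region that overlaps an exon and is centred 769 bases from the start, reached the promoter distance, since the region over its start showed no such difference.

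Of the 71 regions with a peak in 2 or more libraries, 26 (36.6%) had one in all 15, against 35.6% of such regions genome-wide. In KO against WT, 6 regions (8.45%) had a peak in every WT library and in no KO library, against 2.48% genome-wide, and 2 (2.82%) had the reverse pattern, against 4.79%. Without MUC1, 5 of 65 regions (7.69%) were lost. The 6 lost regions were MUC1-4, KRT7-5, KRT7-6, KRT8-19, KRT19-2 and KRT19-8, and all but KRT19-2 had no peak in any rescue library. These 5 (7.04%) were held by WT alone, against 1.03% genome-wide. Without MUC1 they were 4 of 65 (6.15%). MUC1 was chosen with this pattern known, and KRT7-5 and KRT7-6 are neighbours. The peaks of KRT8-19 and KRT19-8 were weak calls, with lowest WT ranks of 6.63 and 1.55.

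From KO to rescue, 1 region was gained (KRT19-2), against 0.910% genome-wide, and 1 was lost (MUC16-1), against 1.24%.

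**Figure D3:**
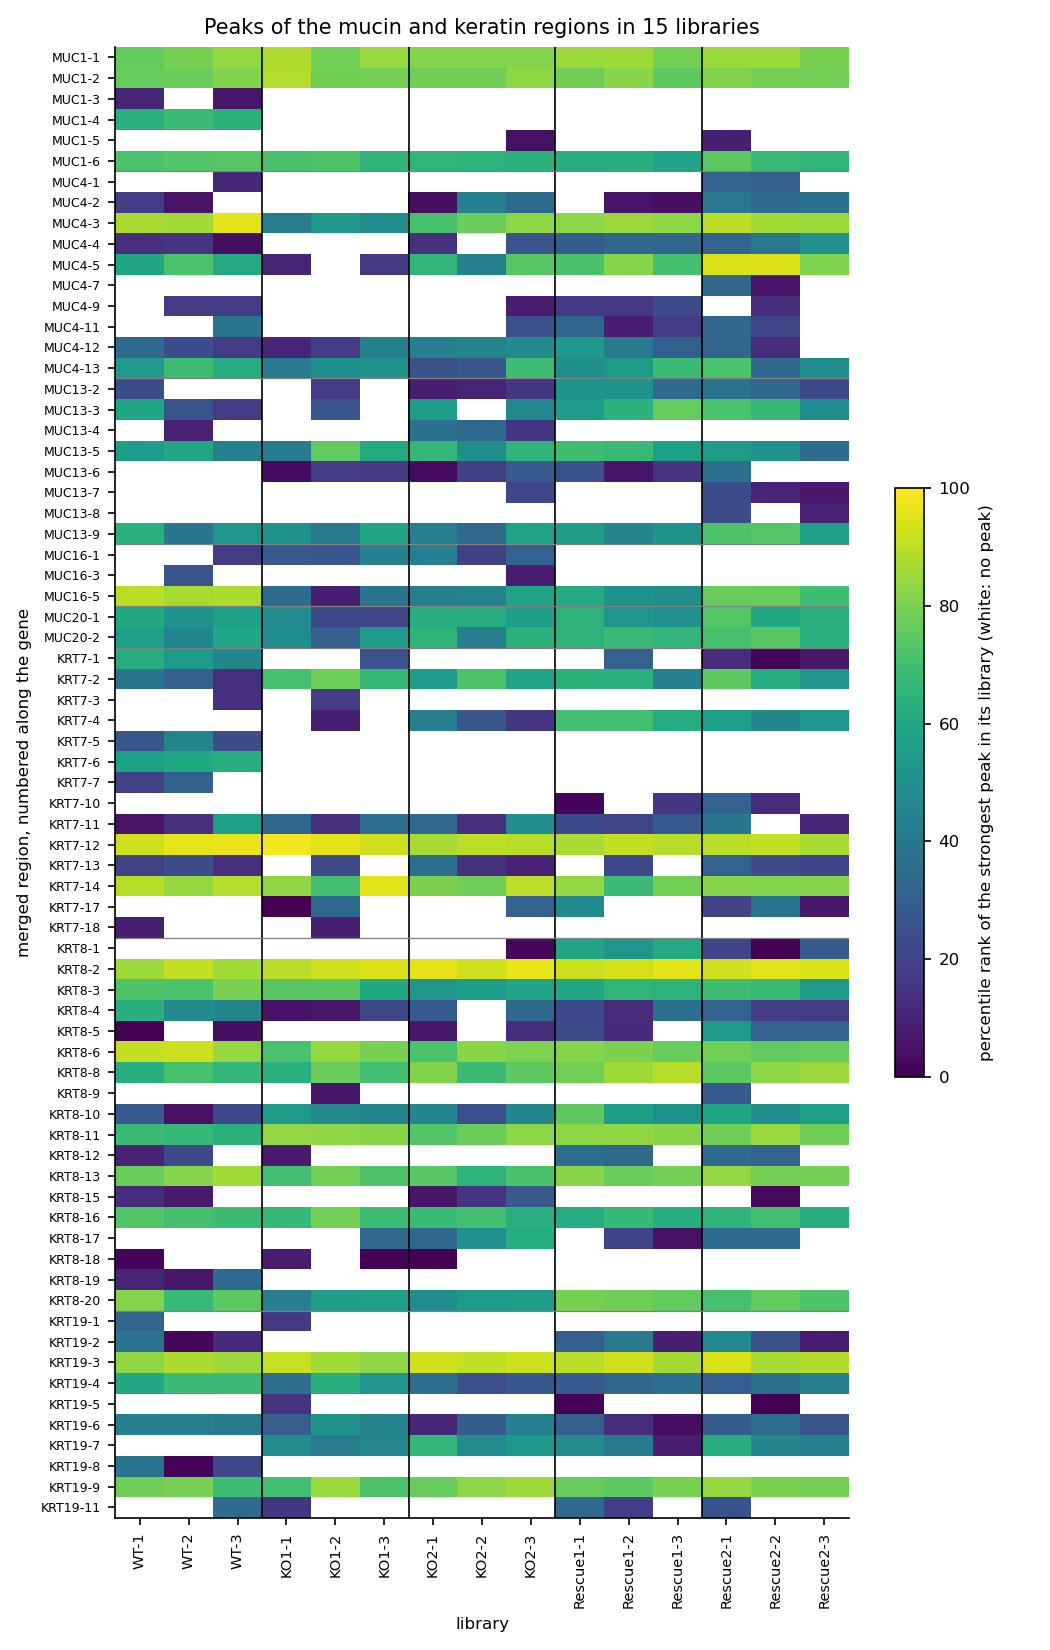
Percentile rank of the strongest peak in the 71 regions with a peak in 2 or more libraries (rows, numbered along each gene, shared regions shown once) in the 15 libraries (columns), white where no peak was called. Rows MUC1-4, KRT7-5, KRT7-6, KRT8-19 and KRT19-8 are filled in the 3 WT columns alone.

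Without MUC1, 23 member regions had a peak in all 15 libraries. In KO against WT, 6 of them ranked lower at an exact permutation p under 0.05, against 11.7% of 104967 such regions, and 4 ranked higher, against 16.5%. The 6 were MUC4-3, MUC16-5, KRT8-6, KRT8-13, KRT8-20 and KRT19-4. The 4 were KRT7-2, KRT8-2 (the same region as KRT18-4), KRT8-10 and KRT8-11. None passed after adjustment.

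In rescue against KO, 4 of the 23 (MUC4-3, MUC20-2, KRT8-13 and KRT8-20) ranked higher with an adjusted p under 0.05, against 7.41%, and none ranked lower, against 5.89%.

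**Figure D4:**
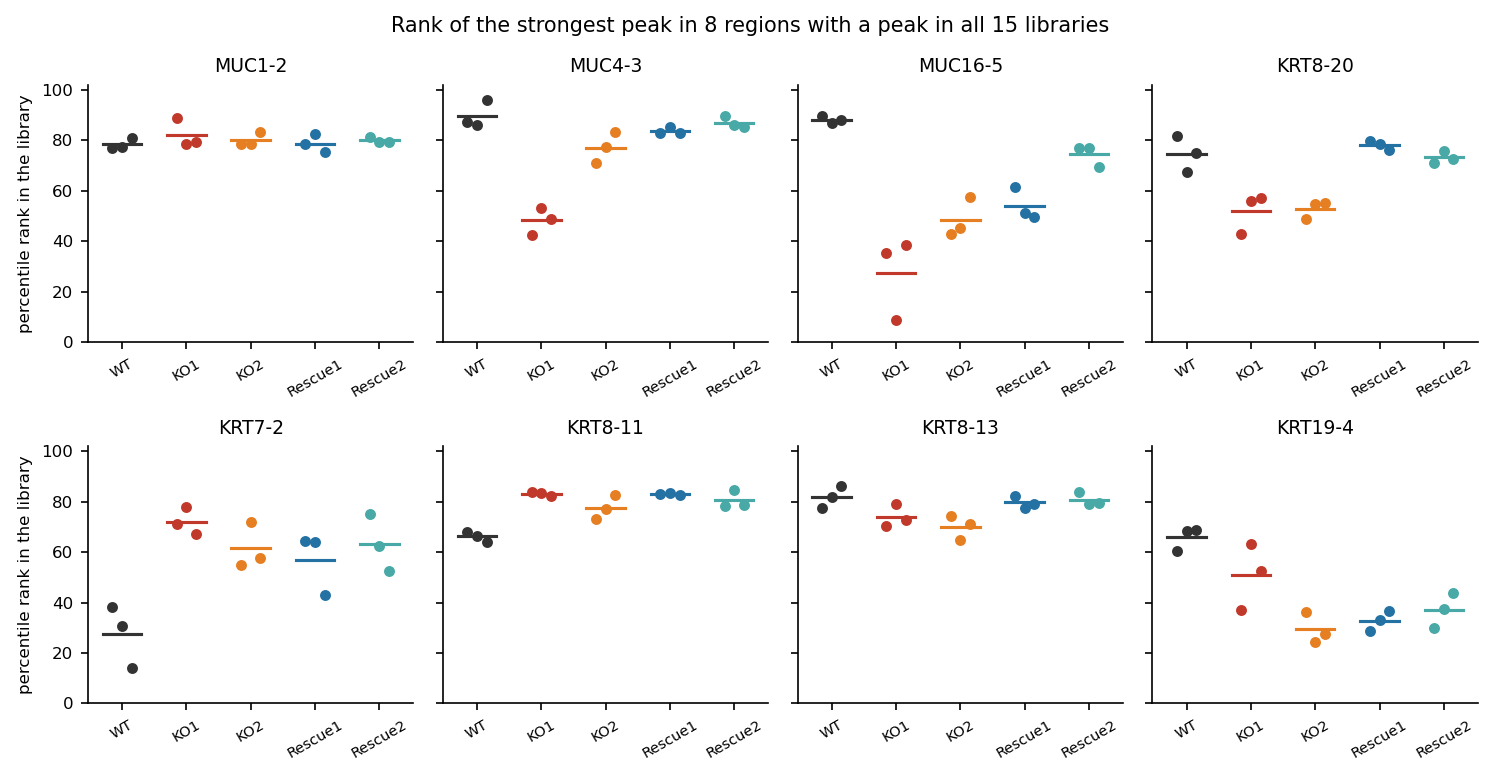
Percentile rank of the strongest peak in 8 regions with a peak in all 15 libraries, 1 point per library and a line at each group mean. MUC1-2 overlaps between groups, MUC4-3, MUC16-5 and KRT8-20 are lower in KO than in WT, KRT7-2 and KRT8-11 are higher, and KRT19-4 is low in the rescue libraries too.

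Width was compared in the same regions after the values of MUC1-2 had been seen. In 6 of the 23 (MUC4-3, MUC16-5, KRT8-6, KRT8-13, KRT19-4 and KRT19-9) every KO library had fewer bases under peaks than every WT library, against 6.66% genome-wide. In 1 (KRT8-11, 416 to 479 bases in WT and 487 to 635 in KO) every KO library had more, against 11.1%. In 4 of the 23 (KRT8-6, KRT8-13, KRT8-16 and KRT19-4) every rescue library had fewer bases than every WT library, against 4.50%. KRT8-6 covered 617 ± 31.2 bases over the 3 WT libraries, 451 ± 36.3 over the 6 KO libraries and 484 ± 53.7 over the 6 rescue libraries (± SD). KRT19-4 covered 331 ± 61.5, 239 ± 34.6 and 252 ± 26.3 bases in the same order.

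Related genes were listed with earlier results known. Of 16 other mucins and mucin-like genes, 3 had higher and 5 lower cover in KO than in WT at an exact permutation p under 0.05, against the 15.9% higher and 15.3% lower of all genes, with a median difference of -27.8 bases. MUC3A, an intestinal membrane mucin, fell from 1712 ± 315 to 1097 ± 196 bases (exact permutation p = 0.0238) and was 1157 ± 268 in rescue. MUC12 fell from 1616 ± 228 to 1198 ± 129 (exact permutation p = 0.0238) and was higher in rescue at 1562 ± 160 (exact permutation p = 0.00216, adjusted 0.0169). MUC19, a gel-forming mucin, rose from 113 ± 59.2 to 914 ± 117 bases (exact permutation p = 0.0238) and was lower in rescue at 364 ± 193 (SD, n = 3 in WT and 6 in the others, exact permutation p = 0.00216, adjusted 0.0169).

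Of 33 other keratins with peaks, 5 were higher and 7 lower in KO (median -33.0 bases), against the same 15.9% and 15.3%. KRT80 had 2317 to 2706 bases in WT and 2798 to 3449 in KO, and KRT6A, a keratin of injured and stratified epithelium, had 0 to 78 in WT and 265 to 492 in KO. KRT79 had 2272 to 2527 bases in WT and 1682 to 2222 in KO. Compared with KO, 1 of the 33 was higher and 2 were lower in rescue, against 31.4% and 7.33% of all genes.

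Of 14 keratin anchors and partners, 6 were lower and 2 higher in KO (median -277 bases), against 15.3% and 15.9% of all genes. The list holds proteins of desmosomes and hemidesmosomes, and also vimentin (VIM), which the study names as a mesenchymal marker. PKP2, a desmosomal plaque protein, had 2943 to 3044 bases in WT and 1482 to 2101 in KO. PKP3 had 1500 to 1570 in WT, 797 to 1049 in KO and 1080 to 1644 in rescue, where it exceeded KO by 460 bases (exact permutation p = 0.00216, adjusted 0.0169). PPL, periplakin, fell by 1089 bases in KO (exact permutation p = 0.0238) and was 597 bases higher in rescue than in KO (exact permutation p = 0.00433, adjusted 0.0257). PLEC, plectin, had 6588 to 7172 bases in WT and 7299 to 7999 in KO.

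Of 25 enzymes of mucin O-glycosylation, 3 were higher and 5 lower in KO (median 50.0 bases), against 15.9% and 15.3% of all genes. GALNT18 had 7943 to 9681 bases in WT, 6019 to 7503 in KO and 5286 to 7219 in rescue. ST3GAL1, a sialyltransferase of core O-glycans, had 5790 to 6065 bases in WT and 6375 to 7469 in KO. In rescue against KO, 6 of the 25 were higher, against 31.4% of all genes, and none was lower, against 7.33%.

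Of 14 epithelial transcription and splicing factors, 5 were lower, among them GRHL2, OVOL1, ESRP2 and KLF5, and none was higher in KO (median -323 bases), against 15.3% and 15.9% of all genes. GRHL2, a factor that maintains epithelial genes, had 4542 to 4997 bases in WT, 3331 to 4513 in KO and 3065 to 3898 in rescue. ESRP2, an epithelial splicing regulator, had 2138 to 2367 in WT, 1678 to 2121 in KO and 2018 to 2464 in rescue. The list is described by these counts alone, beside a median over all genes of -10.5 bases.

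Across the 15 libraries, the genes whose cover followed MUC1 most closely among 15510 genes were ITGB2 (Pearson r = 0.957), CLDN4 (0.954), HBA2 (0.950), HBA1 (0.937) and MRPL43 (0.936). The windows of HBA1 and HBA2 overlap, and all points share their libraries and list sizes. The search kept the highest correlations with the values by which MUC1 was chosen, so it is a description without a test. CLDN4, a tight junction claudin, had group means of 4552 bases in WT, 3334 in KO1, 3324 in KO2, 3344 in Rescue1 and 3454 in Rescue2.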

How the data were processed

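ATAC-seq peak lists of 15 libraries (WT, KO1, KO2, Rescue1 and Rescue2, 3 each) were read as deposited by the authors, who aligned reads to hg38 with BWA and called peaks per library with MACS2. Per the submitters' processing notes the versions were BWA 0.7.17 and MACS2 2.2.7.1. The BWA version in the study's methods differs. Each list holds, as deposited, peak positions and summit offsets, a score, a fold ratio of signal over background at the summit, and −log10 p and −log10 q values. The lowest −log10 q was 1.30 to 1.31, matching a threshold of q = 0.05 used by the authors. The authors' test on read counts (DiffBind 2.14.0) was not run here, and read depth was not analysed here.

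From these lists (Python 3.11.15, numpy 2.4.6, pandas 2.3.3), bases under peaks were summed over each gene body plus 10 kb per side (GENCODE v44), and the strongest peak within 500 bp of the canonical start was ranked by −log10 p within its library. Differences of means were tested with two-sided exact permutation tests over libraries, KO (6) against WT (3) and rescue (6) against KO (6), adjusted by the Benjamini-Hochberg method over all genes, promoters or shared regions; the tests were tested on simulated data. By the clone names used in the study, rescue shares a clone of origin with KO2 and not with KO1. Differences between KO1 and KO2 therefore enter the comparison of rescue with KO. Both comparisons share the KO libraries. The members and lists were chosen with earlier results of these data known. All 10 members are named, and of the related lists up to 5 genes per list with the largest difference among those whose KO libraries all lay above or below WT. Sequences were read from the hg38 reference, leaving out annotated UTRs. Some genes and sequences are not reported here. No more than 0.131% of intervals were identical between a pair of libraries.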

Additional observations from a re-analysis of the deposited data

Results flagged for a closer look

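Within the KO and rescue groups of 6 libraries, 26 sets of member values (bases under peaks and promoter ranks) were examined for a library far from the rest. Only 1 was found, where chance gives about 1 in 20. The promoter rank of MUC1 was 0 in KO1 replicate 2, while the next lowest KO library was at 78.2. The peak of the promoter region MUC1-2 in that library ranked 78.2 and covered 433 bases, but began more than 500 bp from the canonical start. For no member did both clones of a pair move in opposite directions in all libraries.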

How the results depend on the processing

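The same-numbered libraries of different groups did not deviate together: over 15516 genes, the 30 correlations of their deviations from group means ran from -0.18 to 0.0514 (median 0.00643), so the replicate numbers were not taken as pairs. With the replicate block, 3 members had a p under 0.05 for cover in rescue against KO (KRT8 moved to an exact permutation p of 0.0556) and 2 for promoter rank. In KO against WT the smallest exact p under the block exceeds 0.05, as it does with a WT library left out or with KO1 or KO2 alone, so the members whose libraries did not overlap were counted instead (2 for cover and 1 for promoter rank, KRT7, which had a promoter peak in WT alone), a choice made after seeing the data. For cover that count was 6 with KO1 alone, 2 with KO2 alone and 2 to 4 without a WT library, and for promoter rank 1 to 3 without a WT library.

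Counted by peak number, no member passed for KO against WT (exact permutation p under 0.05 in 0 of 8). Leaving out a KO library left 2 to 5 members for cover and 1 to 3 for promoter rank: MUC20, KRT8 and KRT19 each have 1 KO library inside the WT range, which with 5 against 3 libraries gives an exact permutation p of 0.0714. In rescue against KO, cover gave 2 members with Rescue2 alone and 3 to 5 without a library. Promoter rank gave 1 with 1000 bp on each side, 1 by region rank and 1 to 2 without a library. The regions gained in KO numbered 1 with 0.5 of the region required, 1 at −log10 q of 5 or more, 1 in equal lists of 150000 peaks and 5 by the majority rule. The lost regions numbered 3 at the strict threshold and 12 by majority. In rescue against KO, regions gained numbered 2 at 0.5 of the region, 0 in equal lists and 9 by majority, and regions lost 0 at 0.5 of the region, 0 at the strict threshold and 0 in equal lists.

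Directions turned for 15 member differences. Without flanks, KO minus WT was 24.3 bases for KRT18 and 361 for KRT19, and rescue minus KO was 67.2 for MUC16 and -241 for KRT19. With 5 kb flanks MUC16 gave 67.2, and in equal lists 27.2. MUC13 in KO minus WT was -84.7 at the strict threshold and -103 in equal lists. KRT18 promoter rank rose by 6.27 with 1000 bp on each side. For MUC1, which was not tested, the KO minus WT promoter rank of -10.4 became 4.62 by fold enrichment, 2.64 with 1000 bp on each side and 3.18 without KO1 replicate 2 (-14.6 to 3.18 without a library). Its rescue minus KO promoter rank of 11.3 became -1.71 with 1000 bp on each side and -2.25 without KO1 replicate 2 (-2.25 to 15.5 without a library), and its rescue minus KO cover became -0.333 by number of peaks. Without flanks MUC1 cover kept its direction but moved beyond 1 SD, to -362 bases in KO minus WT and 0.333 in rescue minus KO. Of the other member differences under an alternative, 364 kept their direction and, where tested, their side of the threshold, and 77 kept the direction only. Cover counts only called bases, so a gain below the calling threshold is not seen.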
